A study of Caenorhabditis elegans with 12 samples.

Results

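RNA was sequenced from whole Caenorhabditis elegans larvae, and the comparison described here sets the strain labelled CA-AAK-2 (WBM60), which carries an active form of AAK-2, against the wild type N2. It uses 6 of the 12 libraries of the series, 3 from each strain. Its members are the 10368 of 14505 genes whose mean over these 6 libraries was at least 5 CPM, the read counts scaled by the authors to library size. Animals of each strain were synchronised, grown at 20 degrees on E. coli, collected as L4 larvae and pooled, so that a library stands for a population and not for 1 animal. The remaining strains, CA-CRTC-1 (WBM55, with the changes S76A and S179A in the coactivator CRTC-1) and CA-AAK-2;CA-CRTC-1 (WBM66, with both transgenes and the same 2 changes, called the double strain), serve below to ask whether a gene moved by the same amount when CA-CRTC-1 was also present. The promoter of the transgene, the altered residues of AAK-2, the transformation marker and whether the transgene was integrated are not given in the sources used here. In RNA from whole animals, fewer cells of a type and less RNA per cell cannot be told apart.

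AMP-activated protein kinase, AMPK, is a complex of a catalytic alpha, a scaffolding beta and a sensing gamma subunit. It is activated when AMP rises relative to ATP and when an upstream kinase, the LKB1 homologue PAR-4 in worms, phosphorylates the alpha subunit. The active kinase slows processes that store energy, such as lipid synthesis, and favours those that release it. In worms the alpha subunits are AAK-1 and AAK-2, and AAK-2 is known for its part in lifespan under low energy, in stress survival and in the arrest of germ cells during starvation. The L4 stage is a time of rapid change: the germ line passes from making sperm to making oocytes, the epidermis builds the adult cuticle, and the intestine starts to make yolk.

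Differences are given on the log2(CPM + 0.5) scale as CA-AAK-2 minus N2 with the standard error of limma's fit, and levels are CPM in replicates 1, 2 and 3 in that order. A gene is said to have risen or fallen where its adjusted p (limma, Benjamini-Hochberg) did not exceed 0.01 and its change reached 1.5-fold. CPM are not divided by gene length, so levels are compared between libraries and not between genes. Single members of near-identical families, among them collagens, vitellogenins and abu genes, can share reads and are less certain than their family.

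The transgene was plain in the reads of aak-2 (WBGene00020142, chromosome X). The gene lay at 59.9, 57.2 and 67.9 CPM in N2 and at 2440, 2509 and 2640 CPM in CA-AAK-2. All 3 CA-AAK-2 libraries stood above all 3 N2 libraries, and the difference was 5.35 ± 0.08 (adjusted p = 7.8e-15). Reads do not tell the transgene from the native gene, so the level of the native transcript is not known. Inside the first intron of the aak-2 transcripts T01C8.1a.1 and T01C8.1b.1, on the opposite strand, and not in an intron of T01C8.1c.1, WBcel235 annotates a noncoding RNA of 60 bases, T01C8.9 (WBGene00199326). It had 0 reads in the 3 N2 and the 3 CA-CRTC-1 libraries, where the floor of 3 reads corresponds to 0.0535 to 0.0856 CPM. It had 131, 154 and 126 reads in CA-AAK-2 and 168, 146 and 243 in the double strain. It lies below the filter of 5 CPM and was not tested, and because the kit keeps no strand, reads of T01C8.9 and of unspliced aak-2 RNA cannot be told apart.

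The other genes of the AMPK complex and its regulators did not pass. Of 16 further tested genes limma called 0, edgeR called 1, and 9 had an unadjusted p under 0.05. Over all 10368 genes 3493 were higher and 1534 lower at an adjusted p of 0.05 (limma) without a fold threshold. Counts at an unadjusted p under 0.05, here and below, are read against at least that share. The other alpha subunit, aak-1, lay at 56.5, 51.6 and 55.9 CPM in N2 and at 50.8, 53.0 and 61.6 CPM in CA-AAK-2, and these values overlap (0.01 ± 0.08). Among the gamma subunits the values were 0.45 ± 0.09 for aakg-1, -0.23 ± 0.08 for aakg-2, 0.50 ± 0.12 for aakg-4 and 0.33 ± 0.07 for aakg-5, each under the 1.5-fold threshold. aakg-3 lay below the filter, at 2.93 ± 0.41 CPM in N2 and 2.18 ± 0.47 CPM in CA-AAK-2 (SD, n = 3). The upstream kinase gene par-4 stood at 0.31 ± 0.08 and its partner strd-1 at 0.48 ± 0.12. The scaffold gene mop-25.1 stood at -0.50 ± 0.08 and passed as lower with edgeR and under median-ratio scaling. crtc-1, whose product AMPK is known to phosphorylate, stood at -0.03 ± 0.11, and crh-1, the worm CREB gene, at 0.19 ± 0.11.

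Across the transcriptome 1306 of 10368 genes were called, 850 of them higher (8.2%) and 456 lower (4.4%). Most changes were of modest size: 266 rises and 130 falls exceeded 2-fold, 59 and 10 exceeded 4-fold, and 2 rises, aak-2 and nspe-7, exceeded 8-fold. Replicates were close, with a median SD of 0.081 in N2 and 0.12 in CA-AAK-2 on the log2 scale, and for 57.4% of all tested genes the 3 CA-AAK-2 values lay outside the range of the 3 N2 values. The balance of rises and falls depended on the scaling. Over all genes the median was 0.11 with the deposited scaling and -0.01 after rescaling by the median ratio, which gave 518 rises and 701 falls, and edgeR on recovered reads gave 595 and 713. The 456 falls were all among the falls after rescaling and 454 of them among those of edgeR, while 517 and 591 of the 850 rises passed. With each library left out in turn, 466 rises and 302 falls passed in all 6 fits and under both of these alternatives. Calls and values below keep the deposited scaling and are not shifted by the median of 0.11.

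**Figure D1:**
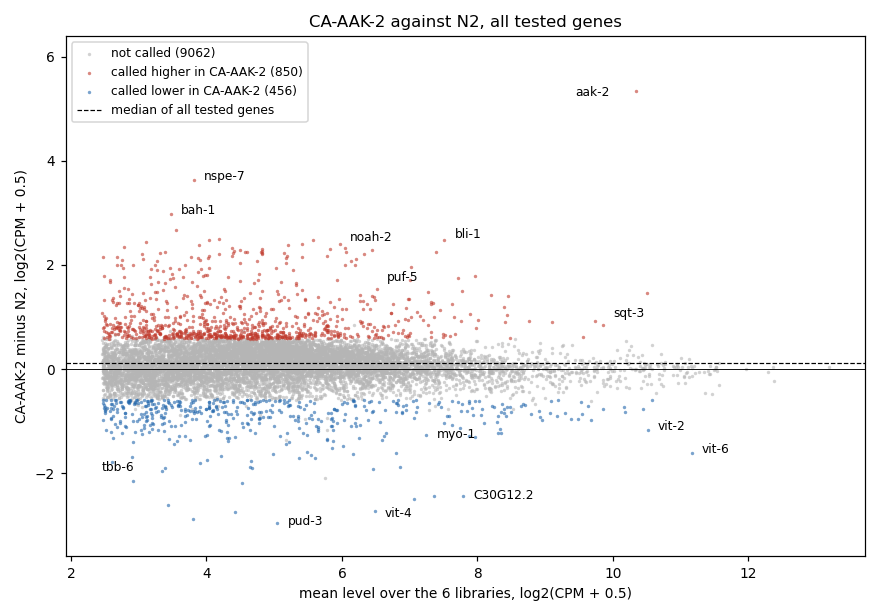
Difference between CA-AAK-2 and N2 (vertical, log2 of CPM plus 0.5) against mean level over the 6 libraries (horizontal, log2 of CPM plus 0.5) for the 10368 tested genes, with 850 called higher in red and 456 called lower in blue. aak-2 stands alone at 5.35, the yolk genes vit-2, vit-4 and vit-6 lie among the falls at medium to high levels, and the dashed line marks the median of all genes at 0.11.

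The gene lists that follow cover the tissues and pathways of an L4 larva, and their shares of called genes are read against 8.2% higher and 4.4% lower over all genes. Rises were most frequent, by share, in the lists of oocytes and eggshell, cuticle furrows, apical matrix and DNA replication. Falls were most frequent in those of yolk, col collagens, pharyngeal muscle, abu and pqn genes and the intestinal brush border. Of the 48 lists 12 held no call.

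**Figure D2:**
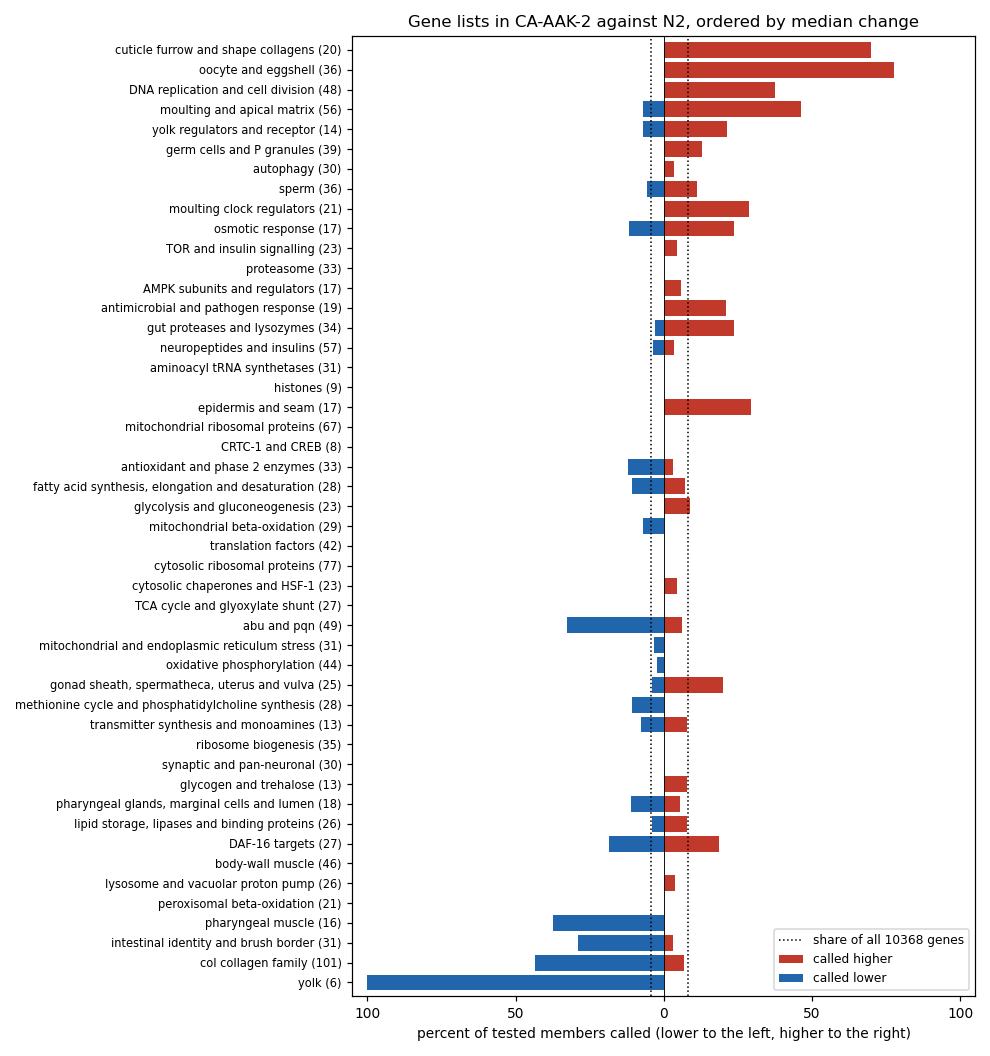
Percent of the tested members of each gene list called higher (red, to the right) or lower (blue, to the left) in CA-AAK-2 than in N2, ordered by the list's median change, with the number of tested members in brackets. Dotted lines mark the shares of all 10368 genes, 8.2% higher and 4.4% lower. Yolk (6 of 6 lower) has the lowest median, and the furrow and shape collagens (14 of 20 higher) the highest.

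Yolk genes fell, and genes of the oocytes that take up yolk rose. The vitellogenins are yolk lipoproteins made in the intestine and carried to the oocytes. All 6 fell, with a median of -2.15, and their summed level was 6446, 6471 and 6050 CPM in N2 against 1979, 2546 and 2091 CPM in CA-AAK-2. vit-3 (WBGene00006927, chromosome X) lay at 257, 212 and 212 CPM in N2 and at 37.99, 37.47 and 44.38 CPM in CA-AAK-2 (-2.49 ± 0.37, adjusted p = 0.00013). vit-6, on chromosome IV, lay at 3531, 3618 and 3234 CPM in N2 and at 1043, 1319 and 1058 CPM in CA-AAK-2 (-1.61 ± 0.37, adjusted p = 0.0029). The groups of both genes stood apart. The spread shared by all 12 libraries includes that of the double strain, whose libraries lay at 1296, 2436 and 483 CPM for vit-6. In a fit of the 6 libraries alone the difference of vit-6 had a standard error of 0.09 and an adjusted p of 2.2e-07. With all strains in the fit, vit-2 (-1.18 ± 0.32) missed the threshold when any 1 of the 6 libraries was left out (-1.3 to -1.09, adjusted p 0.011 to 0.03), and vit-6 missed it without N2 replicate 1 or 2 or CA-AAK-2 replicate 1 or 3 (-1.72 to -1.55 over the 6 fits, adjusted p up to 0.013). In the 6-library fit vit-2 had an adjusted p of 2.1e-06.

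Of 36 tested genes of oocytes and the eggshell 28 rose and 0 fell, with a median of 0.91, and 28 rose whichever library was left out. puf-5 (WBGene00004241), an RNA-binding protein of late oogenesis, lay at 40.9, 51.7 and 46.8 CPM in N2 and at 126, 146 and 136 CPM in CA-AAK-2 (1.54 ± 0.16, adjusted p = 1e-05). The eggshell proteoglycan gene cpg-2 lay at 182, 220 and 210 CPM in N2 and at 461, 493 and 445 CPM in CA-AAK-2 (1.19 ± 0.13). rme-2, the receptor with which oocytes take up yolk, went from 78.7, 92.2 and 90.3 CPM to 190, 187 and 183 CPM (1.1 ± 0.14). In each of these genes every CA-AAK-2 library lay above every N2 library. Others of the list that rose were pos-1 (1.38 ± 0.16), a zinc finger protein of early cell fate, cpg-1 (1.3 ± 0.15), and meg-1 (2.00 ± 0.21), a protein of germ granules. gld-1, a translational repressor of early germ cells, stood at 0.41 ± 0.09 and did not pass.

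In the wider germ line fewer genes passed. Of 39 genes of germ cells and P granules 5 rose and 0 fell (median 0.30). That count was 2 without N2 replicate 1 or CA-AAK-2 replicate 3, 8 without CA-AAK-2 replicate 2, and 2 after median-ratio scaling. Of its defining markers, pgl-1 lay at 517, 506 and 515 CPM in N2 and at 526, 475 and 555 CPM in CA-AAK-2 (0.01 ± 0.06), while glh-1 stood at -0.20 ± 0.07. nos-2, a nanos homologue, rose (1.17 ± 0.21), as did sygl-1 (0.75 ± 0.10), a target of Notch signalling in germline stem cells. Of 48 genes of DNA replication and cell division 18 rose and 0 fell (median 0.54), and 10 of them passed after median-ratio scaling. All 48 stood above the median of all genes. tyms-1, thymidylate synthase, went from 8.93, 9.77 and 9.33 CPM to 22.4, 22.4 and 23.9 CPM (1.25 ± 0.08, adjusted p = 3.6e-07). The cyclin gene cyb-2.1 (1.17 ± 0.12) and the DNA ligase gene lig-1 (0.76 ± 0.07) rose too. Of 36 sperm genes 4 rose and 2 fell, and the sperm phosphatase genes gsp-3 (0.26 ± 0.06) and gsp-4 (0.25 ± 0.07) did not pass. In the list of gonad sheath, spermatheca, uterus and vulva 5 of 25 tested genes rose and 1 fell (median -0.003). At an unadjusted p under 0.05, 7 were positive and 7 negative. The rises included the gap junction gene inx-22 (0.88 ± 0.10), known for its part in holding oocytes in arrest. Another was lin-3 (0.85 ± 0.15), an epidermal growth factor.

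**Figure D3:**
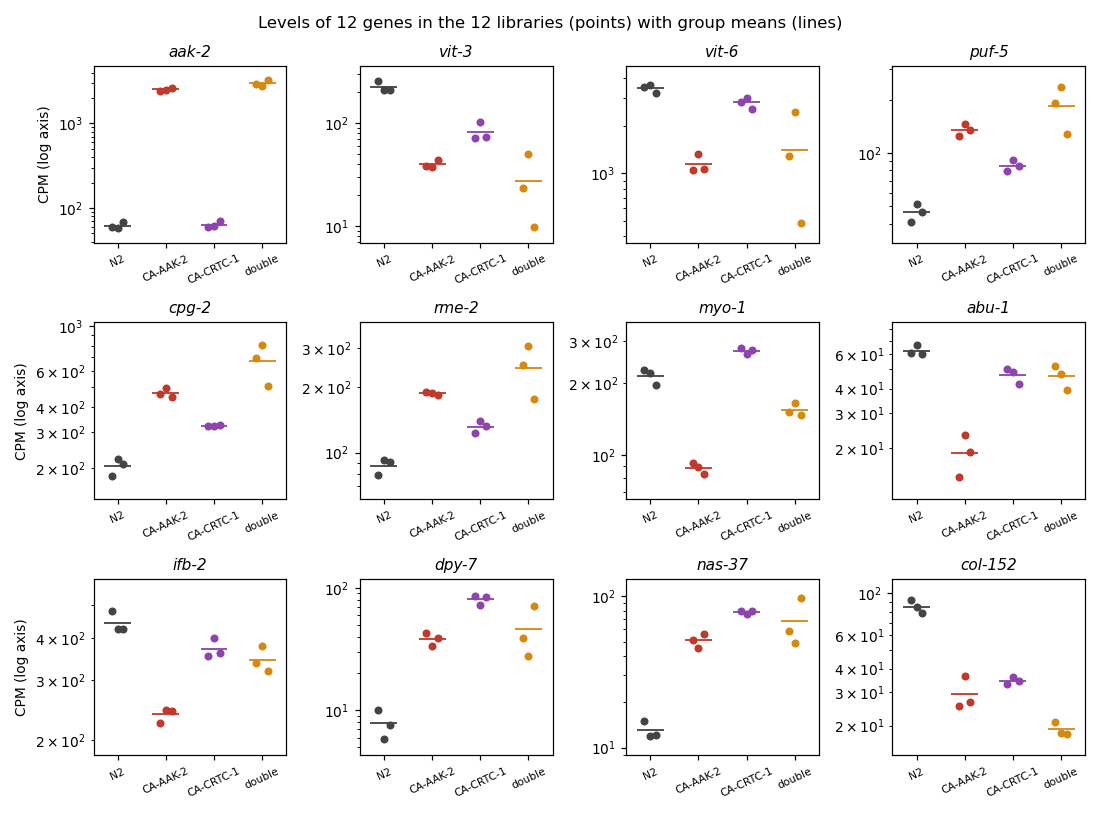
Levels of 12 genes in CPM (vertical, log axes) in the 3 libraries of each of the 4 strains (points) with group means (lines). vit-3 fell from about 212 to 257 CPM in N2 to 37.5 to 44.4 CPM in CA-AAK-2, dpy-7 is low in N2 and higher in all 3 transgenic strains, and abu-1 is low in CA-AAK-2 only among these 12 libraries.

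Genes of the pharynx, the muscular feeding organ with its own cuticle, were among the falls. Of 16 tested genes of pharyngeal muscle 6 fell and 0 rose, with a median of -0.33, and 15 of the 16 stood below the median of all genes. myo-1 (WBGene00002348), a pharyngeal myosin heavy chain, lay at 228, 220 and 195 CPM in N2 and at 92.5, 88.6 and 83.2 CPM in CA-AAK-2. The groups did not overlap (-1.28 ± 0.07, adjusted p = 7.9e-08). The myosin gene myo-5 (-1.09 ± 0.10), troponins of the pharynx, tnt-4 (-0.96 ± 0.09) and tnc-2 (-0.73 ± 0.10), and avr-15 (-0.64 ± 0.13), a subunit of a glutamate-gated chloride channel, fell with it. The other pharyngeal myosin heavy chain, myo-2, was less clear: it lay at 308, 284 and 273 CPM in N2 and at 194, 203 and 269 CPM in CA-AAK-2 (-0.39 ± 0.12, adjusted p = 0.016) and did not pass. Body-wall muscle showed smaller differences. Of 46 genes limma called 0 and edgeR 0, the median was -0.19, and 26 were negative and 0 positive at an unadjusted p under 0.05. Its myosins unc-54 and myo-3 stood at -0.24 ± 0.10 and -0.19 ± 0.07.

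In the list of pharyngeal glands, marginal cells and lumen 2 of 18 tested genes fell and 1 rose (median -0.11). The falls were those of pgp-14 and idpp-4 (-0.93 ± 0.09). The abu and pqn genes code for proteins rich in glutamine and asparagine, many of them known from the pharynx. Of 49 tested 16 fell and 3 rose. Their median was 0.01 as deposited and -0.07 after median-ratio scaling. abu-1 (WBGene00000024) lay at 60.5, 66.9 and 59.5 CPM in N2 and at 14.3, 23.4 and 19.1 CPM in CA-AAK-2 (-1.72 ± 0.15, adjusted p = 2.4e-06). Of the 10 genes whose symbol begins with abu 8 fell, among them abu-7 (-1.89 ± 0.19) and abu-15 (-1.77 ± 0.16), and 1, abu-13 (1.02 ± 0.15), named after its values were seen, rose. On chromosome V, WBcel235 places pqn-63 beside idpc-7, idpc-6, idpc-5, idpc-4 and idpc-3, a run of 6 neighbours that was picked out after its values were seen and in which each gene fell, by -1.72 to -1.09. idpc-6 went from 73.8, 70.1 and 79.1 CPM to 20.51, 23.90 and 22.41 CPM. Of 11 genes of the related idpp class, which encode intrinsically disordered proteins, 7 fell and 1, idpp-1 (1.79 ± 0.29), rose. pgp-14, a lipid transporter gene of the pharynx, lay at 37.8, 36.2 and 36.9 CPM in N2 and at 6.32, 10.7 and 6.69 CPM in CA-AAK-2 (-2.19 ± 0.15, adjusted p = 4.7e-07).

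In the intestine, some genes of the terminal web and of transporters fell, and several protease genes rose. Of 31 genes of intestinal identity and the brush border 9 fell and 1 rose (median -0.39). ifb-2, an intermediate filament of the terminal web under the microvilli, lay at 481, 427 and 425 CPM in N2 and at 224, 245 and 244 CPM in CA-AAK-2 (-0.90 ± 0.08, adjusted p = 3.3e-06). The groups were far apart, and the filament genes ifp-1 (-0.98 ± 0.08), ifd-1 (-0.83 ± 0.10) and ifc-2 (-0.66 ± 0.07) fell with it, as did the water channel gene aqp-4 (-0.95 ± 0.12) and the peptide transporter gene pept-2 (-0.68 ± 0.10). The intestinal GATA factor gene elt-2 lay at 20.35, 20.48 and 20.49 CPM in N2 and at 20.4, 17.8 and 19.9 CPM in CA-AAK-2 (-0.08 ± 0.08), and the esterase gene ges-1, a classical gut marker, stood at -0.16 ± 0.12. The actin gene act-5 (-0.35 ± 0.11) and the ezrin homologue erm-1 (-0.11 ± 0.06), both of the microvilli, were the most abundant uncalled genes of the list. None of these passed. Of 34 gut proteases and lysozymes 8 rose and 1 fell, with a median of 0.12 that was -0.00 after median-ratio scaling. cpr-4, a cathepsin B-like protease, went from 181, 200 and 190 CPM to 536, 488 and 495 CPM (1.41 ± 0.14). The lysozyme gene lys-7 went from 86.6, 99.0 and 95.9 CPM to 218, 234 and 220 CPM (1.25 ± 0.12), and the saposin-like gene spp-18 (1.5 ± 0.22) and the proteases cpr-3 (1.14 ± 0.15) and cpr-1 (0.91 ± 0.14) rose. The fall was that of asp-12 (-0.98 ± 0.14), an aspartyl protease.

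In the epidermis and its cuticle, genes of the cuticle's furrows and of the moult were higher and many col collagens lower. The annular furrow collagens run in rings around the body and are made early in each moulting cycle. Of 20 tested furrow and body shape collagens 14 rose and 0 fell (median 0.99). dpy-7 (WBGene00001069), a furrow collagen, lay at 10.2, 5.89 and 7.62 CPM in N2 and at 42.9, 33.60 and 38.97 CPM in CA-AAK-2 (2.24 ± 0.25, adjusted p = 1.6e-05). The furrow collagens dpy-3 (2.49 ± 0.24), dpy-2 (2.32 ± 0.26), dpy-9 (2.27 ± 0.23) and dpy-10 (2.26 ± 0.24) rose by like amounts. bli-1, a collagen of the struts between cuticle layers, went from 57.6, 52.8 and 54.5 CPM to 349, 268 and 311 CPM (2.47 ± 0.24). Smaller rises were seen for the body shape collagens lon-3 (1.06 ± 0.19), rol-6 (0.95 ± 0.14), sqt-1 (0.93 ± 0.18) and sqt-3 (0.84 ± 0.17). A mutant form of rol-6 is a common transformation marker; whether the transgene adds rol-6 reads was not tested.

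Of 56 genes of moulting and the apical matrix 26 rose and 4 fell (median 0.41). The zona pellucida domain gene noah-2 lay at 23.9, 15.2 and 19.3 CPM in N2 and at 120, 86.0 and 108 CPM in CA-AAK-2 (2.41 ± 0.25). nas-37, a protease with which the old cuticle is shed, went from 14.92, 11.84 and 12.18 CPM to 51.1, 45.5 and 56.4 CPM (1.94 ± 0.18). The lipocalin genes lpr-3, lpr-6, lpr-5 and lpr-4, which are neighbours on chromosome X and were picked out as a run after their values were seen, rose by 2.00 to 2.38. Rises of this size also occurred in mlt-9 (2.00 ± 0.20), a gene needed for moulting, in the hedgehog-related genes grl-15 (2.41 ± 0.24) and wrt-2 (2.13 ± 0.21) and in bah-1 (2.98 ± 0.21), known from mutants on whose heads bacterial biofilm does not bind. fbl-1, a fibulin, fell (-1.24 ± 0.13), as did nas-36 (-0.96 ± 0.08), another protease of the moult. Of 21 regulators of the moulting clock 6 rose and 0 fell. Among these, lin-42, the worm homologue of the clock gene Period, went from 66.7, 74.3 and 84.3 CPM to 184, 133 and 198 CPM (1.17 ± 0.21), and the transcription factor genes myrf-1 (1.16 ± 0.19) and bed-3 (0.82 ± 0.12) rose. A difference between strains in their age within L4 was not tested.

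The large family named col went the other way. Of its tested members 44 fell and 7 rose, together 50.5% of the family, with a median of -0.59, and the summed level of the family was 54050, 55780 and 53240 CPM in N2 against 41590, 48340 and 41410 CPM in CA-AAK-2. col-152 went from 91.7, 84.6 and 78.8 CPM to 25.3, 36.6 and 26.7 CPM (-1.53 ± 0.12, adjusted p = 1.1e-06), and col-150 (-1.09 ± 0.12), col-76 (-0.93 ± 0.10), col-90 (-0.93 ± 0.12) and col-60 (-0.72 ± 0.08) fell. Among the 7 rises were col-149 (1.77 ± 0.20), col-98 (1.65 ± 0.23) and col-176 (1.53 ± 0.42), the last a call lost whichever of the 6 libraries was left out (1.41 to 1.63, adjusted p 0.015 to 0.033). The summed level was highest in CA-AAK-2 replicate 2 among the 3 libraries of that strain. The number of falls was 48 without that library, 25 without CA-AAK-2 replicate 1 and 29 without N2 replicate 1, N2 replicate 2 or CA-AAK-2 replicate 3. Of 19 genes of the nas class of metalloproteases 9 fell and 2 rose.

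Few genes of energy metabolism, the known field of AMPK, passed. In oxidative phosphorylation 1 of 44 genes fell, and in the TCA cycle and glyoxylate shunt limma called 0 of 27 and edgeR 0, with 6 at an unadjusted p under 0.05. Of 23 genes of glycolysis and gluconeogenesis 2 rose as deposited and 0 after median-ratio scaling. Of 29 genes of mitochondrial beta-oxidation 2 fell: cpt-5, a carnitine palmitoyltransferase, went from 14.35, 11.04 and 13.50 CPM to 6.91, 5.35 and 7.25 CPM (-0.95 ± 0.18, adjusted p = 0.00067), and acs-2, an acyl-CoA synthetase, from 39.9, 34.1 and 41.7 CPM to 24.1, 21.3 and 29.6 CPM (-0.62 ± 0.16, adjusted p = 0.0054). The call of acs-2 was lost without N2 replicate 1 or 3 or CA-AAK-2 replicate 1 or 2 (-0.75 to -0.52 over the 6 fits, adjusted p up to 0.027). Of 21 genes of peroxisomal beta-oxidation limma called 0 and edgeR 2, both lower, with a median of -0.32 and 12 negative and 0 positive genes at an unadjusted p under 0.05.

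Lipid synthesis and storage showed single changes rather than a common one. elo-5 and elo-6, elongases known for making branched-chain fatty acids, fell (-0.82 ± 0.10 and -0.77 ± 0.10), and elo-6 lay at 439, 466 and 368 CPM in N2 against 238, 262 and 245 CPM in CA-AAK-2. acly-2, an ATP citrate lyase, lay at 64.2, 64.2 and 64.2 CPM in N2 and at 114, 108 and 117 CPM in CA-AAK-2 (0.81 ± 0.08). The desaturase genes fat-2 and fat-6 stood at 0.11 ± 0.06 and 0.05 ± 0.13 and did not pass. acs-3, another acyl-CoA synthetase, went from 4.91, 4.94 and 5.78 CPM to 21.96, 24.79 and 24.73 CPM (2.09 ± 0.12, adjusted p = 7.9e-08). far-3, of the fatty acid and retinol binding proteins, fell (-1.35 ± 0.17). In glycogen metabolism gyg-2, a glycogenin that primes glycogen synthesis, rose from 20.9, 25.7 and 26.1 CPM to 61.0, 59.2 and 67.4 CPM (1.35 ± 0.15), whereas the glycogen synthase gene gsy-1 stood at 0.26 ± 0.08. In insulin signalling daf-16, the FOXO factor, stood at -0.02 ± 0.09 and did not pass.

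Stress, defence and detoxification genes moved in both directions. In the antioxidant and phase 2 list 4 of 33 genes fell and 1 rose: gst-4, a glutathione transferase, went from 36.04, 30.25 and 31.9 CPM to 13.3, 17.1 and 15.8 CPM (-1.07 ± 0.14), trx-3, a thioredoxin, fell (-1.1 ± 0.12), and cysl-2, a cysteine synthase-like gene, rose (1.03 ± 0.13). skn-1, the factor that controls many such genes, stood at 0.46 ± 0.07, under the 1.5-fold threshold. Of 30 cytochromes P450 of the cyp class 8 rose, among them cyp-13A5 (1.55 ± 0.15), and 3 fell, among them cyp-35C1 (-1.36 ± 0.15). Of 36 UDP-glucuronosyltransferases of the ugt class 1, ugt-44 (1.38 ± 0.11), rose and 8 fell, among them ugt-64 (-1.18 ± 0.10). Of 27 listed DAF-16 targets 5 rose and 5 fell, with pud-3 among the falls: it lay at 57.3, 70.2 and 46.2 CPM in N2 and at 5.06, 10.0 and 6.52 CPM in CA-AAK-2 (-2.95 ± 0.39, adjusted p = 4.9e-05). The related gene pud-4 fell too (-2.62 ± 0.35). sip-1, a small heat shock protein known from oocytes and embryos, rose (0.93 ± 0.13), and was the 1 gene called with limma among 23 of the cytosolic chaperone list. Of 19 antimicrobial and pathogen response genes 4 rose, among them the peptide gene cnc-3 (1.82 ± 0.28) and irg-4 (0.88 ± 0.15). In the osmotic response the inositol transporter genes hmit-1.1 and hmit-1.3 both stood at -0.85 and fell, while hmit-1.2 (1.43 ± 0.15) and osm-8 (2.21 ± 0.27), a mucin-like gene of the epidermis, rose. Of 54 C-type lectin genes 13 rose and 5 fell, and clec-87 went from 73.3, 87.5 and 81.4 CPM to 222, 244 and 211 CPM (1.48 ± 0.15).

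Few neuronal and housekeeping genes changed. Of 57 neuropeptide and insulin genes 2 rose and 2 fell, and of 30 synaptic and pan-neuronal genes limma called 0 and edgeR 1, with 12 at an unadjusted p under 0.05. unc-119 and snb-1, markers of neurons, stood at -0.09 ± 0.17 and 0.16 ± 0.11. tdc-1, which makes tyramine, went from 22.63, 24.02 and 22.70 CPM to 42.8, 45.8 and 42.3 CPM (0.90 ± 0.13), and amx-2, a monoamine oxidase, fell (-1.04 ± 0.10). Together the 12 lists without a call held 425 genes, with list medians of -0.32 to 0.19 and 126 genes at an unadjusted p under 0.05. Of all 10368 genes, 3493 higher and 1534 lower ones passed even an adjusted p of 0.05 (limma) without a fold threshold. The 12 lists include 77 cytosolic and 67 mitochondrial ribosomal proteins, 42 translation factors, 31 aminoacyl tRNA synthetases and 33 proteasome subunits. Of these, 1, 5, 8, 7 and 18 passed that adjusted p of 0.05, in the same order. edgeR called 3 genes in these lists. The proteasome list had a median of 0.19, with 23 positive and 0 negative genes at an unadjusted p under 0.05, and its median was 0.07 after median-ratio scaling.

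Some of the largest changes lay outside the lists. nspe-7 (WBGene00012593) went from 2.23, 1.37 and 1.27 CPM to 25.6, 27.4 and 23.6 CPM (3.64 ± 0.26, adjusted p = 6.1e-07), the largest rise after aak-2. F18C5.5 (2.66 ± 0.21) and C14A4.9 (2.49 ± 0.30) rose, and Y41C4A.11 (-2.74 ± 0.11), T22B7.7 (-2.88 ± 0.21) and C30G12.2 (-2.45 ± 0.16) fell. C30G12.2 lay at 417, 366 and 339 CPM in N2 and at 66.29, 73.72 and 64.04 CPM in CA-AAK-2. The tubulin gene tbb-6 went from 18.7, 15.57 and 13.02 CPM to 3.66, 3.57 and 3.62 CPM (-1.97 ± 0.13). Of the 850 rises 365, and of the 456 falls 186, have no symbol of letters, a hyphen and a number.

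Genes on the X chromosome stood lower than those on the autosomes. Their median was -0.09 over 1238 tested genes (-0.14 to -0.08 with a library left out), against 0.10 to 0.16 on the 5 autosomes, and 5.25% rose and 7.92% fell. After median-ratio scaling the X median was -0.21 against -0.02 to 0.05. The share of all CPM that came from X, with aak-2 left out, was 9.88, 9.83 and 9.76% in N2 and 8.58, 8.70 and 8.63% in CA-AAK-2. The groups did not overlap, and an exact two-sided permutation test gave p = 0.1, the smallest that 3 against 3 allows. The share was 10.2, 10.1 and 10.2% in CA-CRTC-1 and 9.27, 9.44 and 9.72% in the double strain. Oocyte, germline and yolk genes moved at the same time, and 5 of the 6 vitellogenins lie on X; their part in the X median was not tested. Beside aak-2 itself, the tested neighbours got-1.2 (-0.14 ± 0.08), cas-1 (-0.07 ± 0.06) and sto-5 (-0.10 ± 0.15) did not pass. mct-6, 4 genes away, fell (-0.61 ± 0.10), a call lost without CA-AAK-2 replicate 2.

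**Figure D4:**
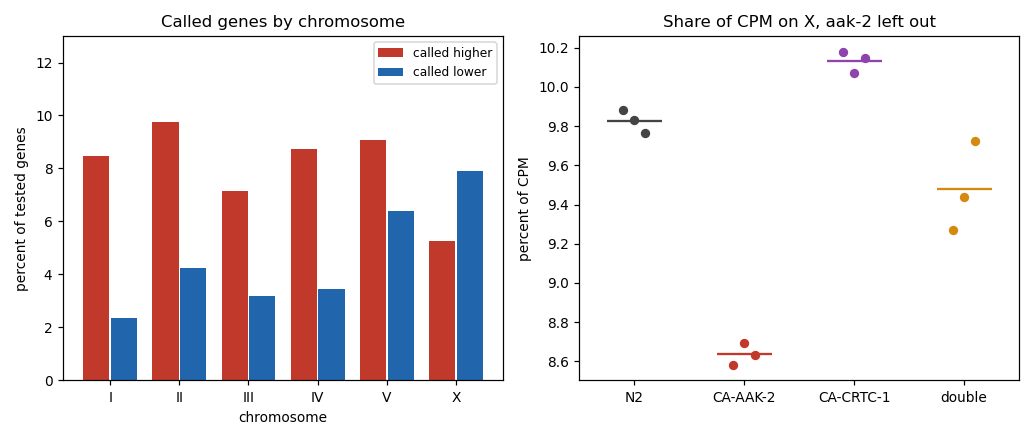
Left, percent of tested genes called higher (red) or lower (blue) in CA-AAK-2 than in N2 on each chromosome. Right, percent of CPM from genes on X with aak-2 left out, in each library (points) with group means (lines); the axis does not start at 0, and the 3 CA-AAK-2 libraries (8.58 to 8.70%) lie below the 3 N2 libraries (9.76 to 9.88%).

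The same transgene can be read a second time in the double strain against CA-CRTC-1, a pair that shares no library with CA-AAK-2 and N2. There 843 of the 10368 genes were called (8.13%), 395 higher (3.81%) and 448 lower (4.32%). Of the 850 rises 636 were positive in that pair, 184 were called in the same direction and 40 in the opposite one. Of the 456 falls 294 were negative, 64 called in the same direction and 19 in the opposite one. The medians shrank from 0.79 to 0.35 for the rises and from -0.82 to -0.16 for the falls, where the genes had been chosen in the first pair. The difference between the 2 effects was tested as an interaction over all 10368 genes. It was called for 869 genes (8.38%), among them 250 of the rises and 203 of the falls. The effect against N2 enters this difference, so genes chosen by that effect are favoured for a call. Across genes the effects in both backgrounds correlated with a Pearson r of 0.316; genes are not independent, and no p is given. Without replicate 1, 2 or 3 of the double strain the interaction was called for 693, 888 or 1073 genes.

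Oocyte genes rose in both backgrounds. Of the 28 that rose, 27 also rose in the double strain, where the list's median was 0.77, and the difference between backgrounds was called for 0 of the 36 genes, with 1 when replicate 2 or 3 of the double strain was left out. puf-5 lay at 79.9, 91.4 and 84.5 CPM in CA-CRTC-1 and at 192, 239 and 129 CPM in the double strain (1.08 ± 0.16). Other genes with like changes in both backgrounds were nspe-7 (3.64 and 3.65), hmit-1.2 (1.43 and 1.41), ugt-44 (1.38 and 1.41), cyp-13A5 (1.55 and 1.58) and gst-4 (-1.07 and -1.09). C30G12.2 fell in both (-2.45 and -3.15), and the difference between backgrounds was -0.70 ± 0.23 (adjusted p = 0.047). Of these 6 genes nspe-7, hmit-1.2, ugt-44, cyp-13A5 and C30G12.2 were selected by their values in both pairs. The vitellogenins had a median of -1.16 in the double strain and 1 of them, vit-3 (-1.83), was called. Their interaction was called for 0 of 6 genes, and for 5 of 6 without replicate 3 of the double strain, when their median was -0.62. myo-1 fell in both pairs (-1.28 ± 0.07 and -0.83 ± 0.07).

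Cuticle genes moved differently in the 2 backgrounds. Where called differences are counted among rises or falls, the genes were chosen by the effect against N2, which enters the difference. The median of the furrow and shape collagens was 0.99 against N2 and -0.38 in the double strain against CA-CRTC-1, and the difference was called for 13 of the 14 that rose. dpy-7 lay at 86.4, 72.9 and 83.4 CPM in CA-CRTC-1 and at 39.1, 27.9 and 70.8 CPM in the double strain (-0.91 ± 0.25, adjusted p = 0.011). All 3 transgenic strains thus had more dpy-7 than N2, where no library exceeded 10.2 CPM. Of the 26 rises in moulting and the apical matrix the difference was called for 20; noah-2 stood at -0.73 ± 0.25 and nas-37 at -0.26 ± 0.18 in the double strain. Of the 16 abu and pqn genes that fell, 1 also fell in the second pair. abu-1 lay at 50.5, 48.3 and 42.4 CPM in CA-CRTC-1 and at 51.97, 47.2 and 39.2 CPM in the double strain (-0.03 ± 0.15), and the difference was called for all 16 abu and pqn genes that fell. In the intestine ifb-2 stood at -0.11 ± 0.08 and cpr-4 at -0.08 ± 0.14 in the double strain, each with a called difference. acs-2 and far-3 moved in the second pair by -3.83 and 1.87, against -0.62 and -1.35 in the first.

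**Figure D5:**
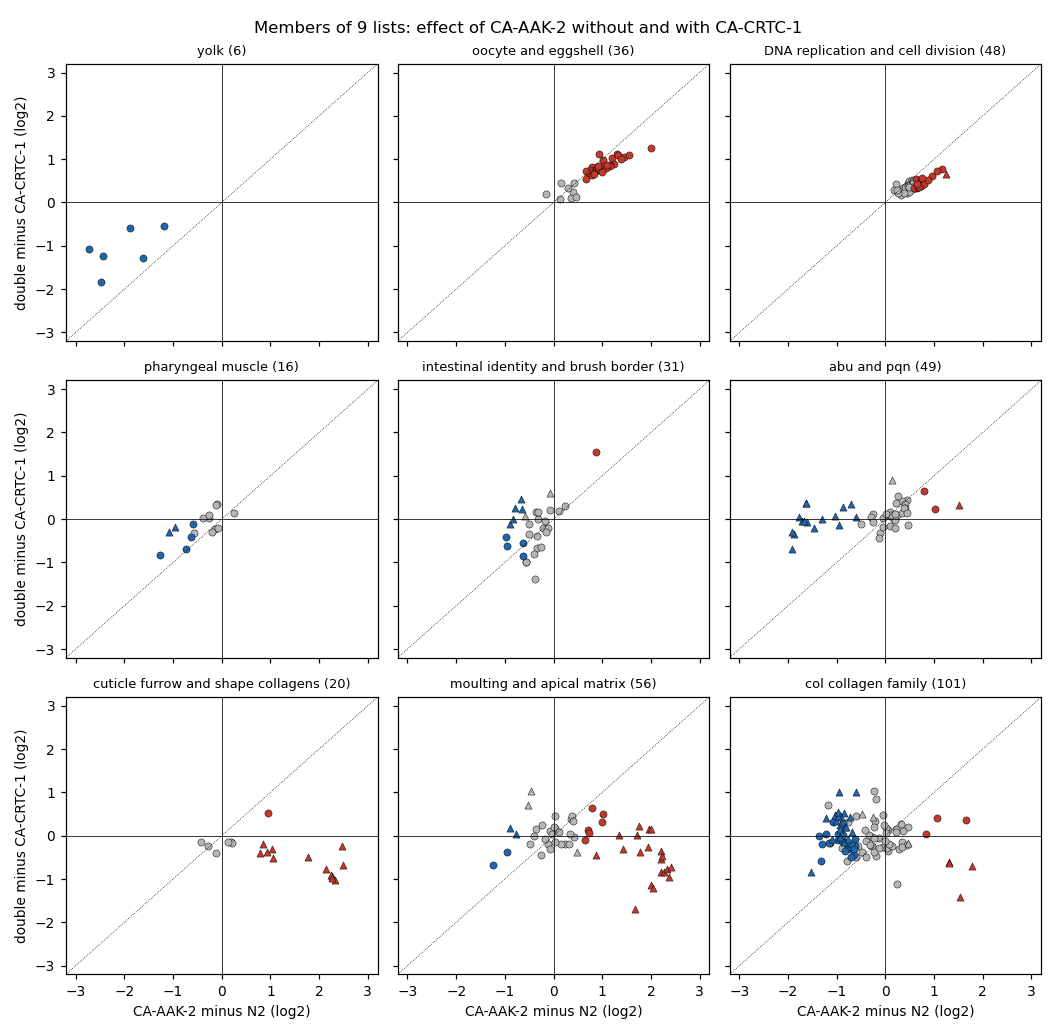
Change with CA-AAK-2 in the double strain relative to CA-CRTC-1 (vertical, log2) against the change relative to N2 (horizontal, log2) for the members of 9 lists, coloured by the call against N2 (red higher, blue lower, grey not called). Triangles mark genes whose difference between backgrounds was called and the dotted diagonal marks equal effects; oocyte genes lie along it, with list medians of 0.91 and 0.77, and the furrow collagens called against N2 lie below it, with list medians of 0.99 and -0.38.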

How the data were processed

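RNA from 12 libraries of whole L4 larvae, 3 from each of 4 strains, was sequenced in paired-end runs, per the labels' protocols. Values were deposited as CPM per gene, the read counts scaled by the authors to library size, and the submitters' processing notes name CASAVA 1.8.2, cutadapt, TopHat2 2.0.8, HTSeq and edgeR. The notes name 2 genome builds without their roles, so no coordinates are given, and gene names, chromosomes and neighbours come from WBcel235. In each library 100% of the CPM values came out as whole multiples of 1 read's worth (within 0.02 reads). Summed over the listed genes, this gave 30887631 to 48989013 reads per library.

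Genes averaging at least 1 CPM over all 12 libraries entered 1 fit of log2(CPM + 0.5) with limma 3.58.1 in R 4.3.3 (trended prior), and those averaging at least 5 CPM over the 6 libraries compared were tested. The double strain minus CA-CRTC-1 and the difference of both effects were contrasts of the same fit. edgeR 4.0.16 (quasi-likelihood) on recovered reads, other scalings, pseudocounts and filters, and leaving out libraries were the alternatives, and the script was tested on simulated data. Labels do not say whether replicates were separate cultures, so p-values measure only the spread between these libraries.

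Members and lists were chosen with earlier results of these data known. Named genes were the 15 largest changes each way with groups that do not overlap, the 8 most abundant called genes each way, up to 6 called and 2 abundant uncalled members per list, 3 per symbol class, the neighbours of aak-2, the AMPK genes and fixed tissue markers. Genes named as runs or as alike in both pairs were chosen after their values were seen. Promoter sequences were not analysed here.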

Additional observations from a re-analysis of the deposited data

Results flagged for a closer look

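These results were singled out because the CA-AAK-2 effect against N2 differed from that in the double strain against CA-CRTC-1 by the interaction test of limma over all tested genes. Among genes called against N2 this held for 250 rises and 203 falls. The effect against N2 is subtracted, which favours negative values for genes chosen as rises and positive values for genes chosen as falls. Values are the second effect minus the first, in log2 units, for genes named above.

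For the named rises of the cuticle and moult the difference was negative, the sign favoured where genes were chosen as rises against N2. It was -3.33 for dpy-2, -3.24 for dpy-9, -3.18 for dpy-10, -3.17 for dpy-3, -3.15 for dpy-7 and -2.70 for bli-1. For the other shape collagens it was -1.56 for lon-3, -1.3 for sqt-1 and -1.03 for sqt-3. In the apical matrix it was -3.32 for lpr-3, -3.14 for lpr-6, -3.12 for lpr-5, -3.05 for lpr-4, -3.14 for noah-2, -2.56 for osm-8, -2.19 for nas-37 and -1.84 for mlt-9. It was -2.67 for wrt-2, -2.42 for grl-15, -2.06 for bah-1 and -1.46 for myrf-1. Of the col genes 27 had a called difference, 20 of them among the falls and 4 among the rises. It was positive for the falls named, with 1.1 for col-90, 1.03 for col-150, 0.92 for col-76 and 0.69 for col-152, and negative for the rises col-149 (-2.48) and col-176 (-2.95).

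In the pharynx the difference was 1.68 for abu-1, 1.81 for abu-15, 1.54 for abu-7 and 1.26 for pqn-63. It was 1.13 for idpc-3, 1.14 for idpc-4, 1.27 for idpc-5, 1.26 for idpc-6 and -2.3 for idpp-1. It was 1.88 for pgp-14, 0.79 for myo-5 and 0.78 for tnt-4. In the intestine it was 0.79 for ifb-2, 0.89 for ifc-2, 0.83 for ifd-1, 1.15 for pept-2, 1.66 for asp-12, -1.49 for cpr-4 and 0.69 for elt-2.

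Elsewhere it was -3.21 for acs-2, -2.16 for acs-3, 3.22 for far-3, -2.06 for cysl-2, 1.37 for trx-3, 1.01 for cyp-35C1, -1.89 for cnc-3, 0.96 for hmit-1.1, 0.59 for hmit-1.3 and 1.17 for amx-2. It was 3.25 for pud-3, 3.46 for pud-4, 2.29 for tbb-6, 2.2 for Y41C4A.11, 1.54 for T22B7.7, -2.79 for F18C5.5, -3.12 for C14A4.9 and -0.59 for tyms-1. For crtc-1 it was 0.97 and for mop-25.1 0.59, neither of which was called against N2. Both strains of the second pair carry CA-CRTC-1, and reads do not tell the transgene from the native gene. The level of the native crtc-1 transcript there is thus not known.

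T01C8.9 lies outside the tested genes. It averaged 3.11 CPM in CA-AAK-2 and had 0 reads in N2.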

How the results depend on the processing

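No named gene that was called, in the values reported or under an alternative, changed its direction under any alternative run. The 850 rises became 518 after median-ratio scaling and 3493 when an adjusted p of 0.05 sufficed and no fold was asked for. The 456 falls became 701 after median-ratio scaling, 713 with edgeR and 1534 at the looser threshold. The 869 genes with a called difference between backgrounds became 2069 there. With 1 of the 6 libraries left out, rises ranged from 656 to 922, falls from 372 to 479 and differences from 661 to 849. Leaving out a library of the double strain, an alternative chosen after seeing the data, gave 693 to 1073 differences.

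The replicate block gave 861 rises, 472 falls and 946 differences. Same-numbered N2 and CA-AAK-2 libraries correlated in their deviations by 0.0425, 0.133 and 0.362, and the other pairs by -0.288 to 0.187. Whether libraries with the same number share a batch was not tested.

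Of 409 named genes 47 fell below the threshold after median-ratio scaling, 40 with edgeR, 31 with a pseudocount of 2 and 15 to 35 with a library left out. The 409 include genes that were not called and so could not fall below it, and the share among called genes is higher. With 3 libraries a group, calls near the threshold depended on single libraries. Recovered reads summed over the listed genes were 30887631 or more in each library.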
